A study of Canis lupus familiaris with 6 samples.

Results

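The genes described here are the EGF receptor EGFR, its partner receptors ERBB2 and ERBB3, the EGF-like ligands AREG, EREG, HBEGF, TGFA, BTC and EPGN, and the receptor inhibitor ERRFI1. They were taken by gene symbol and not by a threshold on their values, but with earlier results of these data known. They are 10 of the 35993 genes in the deposited gene table. The RNA came from CPEK, an established line of canine progenitor epidermal keratinocytes, so that all libraries represent 1 cell line. Cells were exposed for 30 s to cold atmospheric microwave plasma given directly (dCAMP, 3 libraries) or to the gas without plasma (gas control, 3 libraries). Both groups received new medium after 15 min and were harvested for RNA another 24 h on, and no other agent or allele separates the groups. The study's methods speak of 3 independent experiments for its data in general, and neither they nor the labels say this of the sequenced libraries, so the p-values measure the spread between these libraries, which may be technical.

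EGFR is a receptor tyrosine kinase on the keratinocyte surface. Its ligands are made as membrane-bound precursors and are released by metalloproteinases, after which the receptor dimerizes with itself or with ERBB2 or ERBB3 and activates the RAS-MAPK and PI3K-AKT cascades. In skin, keratinocytes make several of these ligands themselves, and the receptor is known for its part in proliferation, migration and re-epithelialization of wounds.

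Total counts per library were between 43084921 and 54082634. All 11 keratinocyte markers were detected, led by KRT5, with summed levels of 20525 to 25934 FPKM under gas and 19175 to 20354 after dCAMP. The markers did not move together. KRT14 was lower, from 8516 to 11139 FPKM under gas and 7734 to 8229 after dCAMP, as was SFN. PERP was higher, from 319 to 444 FPKM under gas and 544 to 561 after dCAMP, as were DSG3 and ITGA6. CDH1 was higher by less, from 88.2 to 88.9 FPKM under gas and 90.8 to 95.1 after dCAMP. The other markers of this list overlapped between the groups. The markers were sorted by overlap without a test. Of all genes tested, 19.0% were higher and 20.9% lower after dCAMP without overlap in CPM. Fibroblast, melanocyte, leukocyte and endothelial markers each summed to at most 3.13 FPKM in any library, and 3 of 8, 3 of 6, 3 of 6 and 1 of 5 of them were listed at 0 in all 6, with DCN, TYR, PTPRC and PECAM1 among these. The endothelial sum was 2.01 to 2.39 FPKM under gas and 2.53 to 3.13 after dCAMP, and its part in the results was not tested. Gas 1 stood apart: on the first principal component, which held 71.2% of the variance, gas libraries 1, 2 and 3 lay at −94.1, −23.0 and 21.7, and the dCAMP libraries at 28.6 to 33.6. The share of counts from mitochondrial genes was 0.509%, 1.42% and 2.35% in gas 1, gas 2 and gas 3, against 2.19% to 2.23% after dCAMP. In bulk RNA, fewer cells of a type and less RNA per cell cannot be told apart.

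Of the 10 genes, 9 were expressed and passed the filter on low counts. AREG and EREG, ligands of EGFR, were higher in all 3 dCAMP libraries by 1.39-fold and 1.19-fold, and TGFA, another ligand, was lower in all 3 at 0.721-fold, each with an unadjusted p under 0.05. EPGN was 1.37-fold higher and ERBB2 0.832-fold in the same comparison without reaching that threshold, although neither overlapped between the groups. EGFR, ERBB3, HBEGF and ERRFI1 overlapped between the groups. After Benjamini-Hochberg adjustment, edgeR's quasi-likelihood test called 0 of the 9 genes, and the 3 genes above are those with an unadjusted p under 0.05. DESeq2 also called 0 of the 9 with an adjusted p under 0.05, beside 1.48% or 1.05% of all genes in its fits, depending on the filter. In contrast, limma's voom with sample quality weights called 4 of the 9, beside 60.8% of all genes tested.

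These counts were read against the 14708 genes tested. An unadjusted p under 0.05 was reached by 20.7% of them, 6.81% higher and 13.9% lower in dCAMP, against 3 of the 9 genes here, 2 higher and 1 lower. A 2-fold or larger difference that also had such a p occurred in 1.09% of genes tested and in 0 of the 9, and an adjusted p under 0.05 in 0% and 0. The groups did not overlap, with dCAMP higher, for 19.0% of genes tested and for AREG, EREG and EPGN, and with dCAMP lower for 20.9% and for ERBB2 and TGFA. The median log2 fold change, dCAMP over gas, was −0.09 over the 9 genes and 0.03 over all genes tested.

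The levels of the genes were compared as FPKM, which is scaled to transcript length. AREG was the most abundant, with a mean of 237.6 FPKM over the 6 libraries (143 to 285). ERBB2 followed at 41.3 FPKM and EGFR at 32.7. EREG, at 18.7, and EPGN, at 17.6 FPKM, overlapped each other, and EPGN also overlapped ERRFI1 at 11.4. ERRFI1 in turn overlapped ERBB3 at 9.17 FPKM. HBEGF, at 4.81, and TGFA, at 2.88 FPKM, came last among the genes detected and overlapped each other. AREG lay above ERBB2, ERBB2 above EGFR, EGFR above EREG and ERBB3 above HBEGF in every library. ERRFI1 also lay above ERBB3 and HBEGF above TGFA within every library, although the ranges of these pairs over the 6 libraries overlapped.

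**Figure D1:**
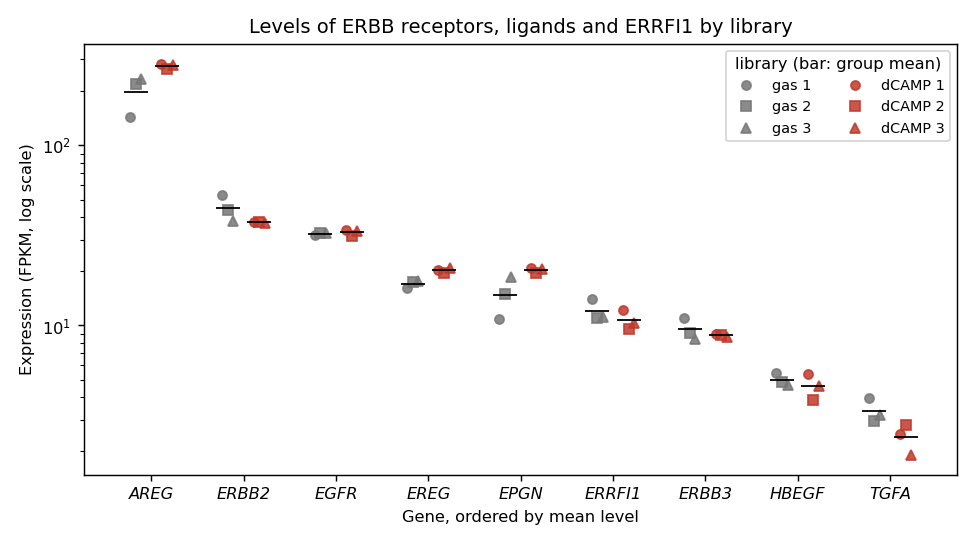
Expression of the 9 detected genes in FPKM on a log axis, with gas libraries in grey, dCAMP libraries in red, a marker shape for each library number and a bar at each group mean. AREG stands highest at 143 to 285 FPKM and TGFA lowest at 1.90 to 3.96, and the gas libraries of AREG and EPGN are spread more widely than their dCAMP libraries.

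EGFR, the receptor that binds AREG, EREG, HBEGF, TGFA and EPGN, lies on chromosome 18 from 5983669 to 6044092 (CanFam3.1). Its levels were 32.0, 32.7 and 32.6 FPKM in gas 1, gas 2 and gas 3, against 34.0, 31.6 and 33.3 in dCAMP 1, dCAMP 2 and dCAMP 3. The groups overlapped, and the means of 32.4 ± 0.392 and 33.0 ± 1.26 FPKM (SD, n = 3 each) differed by less than the spread of the dCAMP libraries. The log2 fold change was 0.03 with a standard error of 0.08 (edgeR, adjusted p = 0.804), and its sign turned in 6 of 18 alternative settings, with upper-quartile scaling and with a correction for gene length among them.

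ERBB2, the receptor without a known ligand that pairs with the others, lies on chromosome 9 from 22760373 to 22785367. It measured 53.3, 43.9 and 38.2 FPKM under gas and 37.4, 37.8 and 37.1 in the dCAMP libraries. All 3 gas libraries were higher, but gas 3 lay close to the dCAMP libraries, with 200.1 CPM (counts scaled to the normalized library size) against 197.0 in dCAMP 1. In edgeR its log2 fold change was −0.27 (SE 0.12), with an unadjusted p of 0.0683 and an adjusted p of 0.257. It was −0.16 without gas 1 and −0.41 without gas 3, and the latter fit gave an adjusted p of 0.0288. That fit called 33.1% of the genes it tested.

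ERBB2 was recorded as 2 transcripts. The transcript of 4694 bases held 85.3% ± 1.82 of its counts in gas libraries and 84.4% ± 3.41 in dCAMP libraries (SD, n = 3 each; two-sided exact permutation test, p = 0.7, adjusted p = 0.7 over 2 genes tested, smallest p possible 0.1). The ratio of ERBB2 to EGFR, in FPKM, was 1.67, 1.34 and 1.17 in gas 1, gas 2 and gas 3 and 1.10, 1.19 and 1.11 in the dCAMP libraries, so that gas 3 fell within the dCAMP range.

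ERBB3, which binds neuregulins and signals through its partner receptors, lies on chromosome 10 from 406856 to 424746. The gas libraries held 11.02, 9.03 and 8.45 FPKM and the dCAMP libraries 8.98, 8.89 and 8.62. Gas 1 alone lay above the others by more than the range of the dCAMP libraries. With −0.10 (SE 0.11) on the log2 scale, ERBB3 did not pass the test (edgeR, adjusted p = 0.557).

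AREG encodes amphiregulin, a ligand made in quantity by keratinocytes, on chromosome 13 from 62925761 to 62936753. Its levels were 143, 220 and 232 FPKM in gas 1, gas 2 and gas 3, against 285, 266 and 279 in dCAMP 1, dCAMP 2 and dCAMP 3. The groups did not overlap, and the coefficient of variation was 24.3% among gas libraries and 3.48% among dCAMP libraries. In edgeR the log2 fold change was 0.48 (SE 0.20), with an unadjusted p of 0.0484 and an adjusted p of 0.240. Relative to the mean of the dCAMP libraries, gas libraries 1, 2 and 3 lay at −0.98, −0.32 and −0.23 on the log2 scale. Without gas 1, the log2 fold change was 0.26 (SE 0.07, unadjusted p of 0.00994, adjusted p = 0.201 in edgeR). Without gas 3 it was 0.57 (unadjusted p of 0.0256, adjusted p = 0.0652 in edgeR). In these fits, 20.6% and 49.2% of all genes tested had an unadjusted p under 0.05. When any other library was left out, the unadjusted p of AREG in edgeR was between 0.0537 and 0.115.

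AREG took the largest share of the ligand signal in every library. Of the summed FPKM of the 6 ligands, its share was 79.7% in gas 1, 84.5% in gas 2, 84.1% in gas 3 and 85.3% in each dCAMP library. The ratio of AREG to EGFR, in FPKM, was 4.49, 6.74 and 7.14 under gas and 8.37, 8.42 and 8.37 in the dCAMP libraries. These are descriptions without a test. The 1070-base transcript held 92.0% to 94.2% of the AREG counts in each library, and the other 3 transcripts each held under 5%.

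EREG encodes epiregulin, a ligand of EGFR that lies beside AREG on chromosome 13, from 62857325 to 62877831. It measured 16.1, 17.4 and 17.6 FPKM under gas and 20.4, 19.6 and 20.9 in the dCAMP libraries. Each dCAMP library exceeded each gas library, and the spread within both groups was small, with SDs of 0.800 and 0.629 FPKM (n = 3 each). The difference on the log2 scale was 0.26 (SE 0.10) with an unadjusted p of 0.0400 and an adjusted p of 0.236 (edgeR). With upper-quartile scaling it was 0.17, with an unadjusted p of 0.168 in edgeR. Leaving out gas 3 gave an unadjusted p of 0.0493, and leaving out any other library gave 0.0749 to 0.190.

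EPGN encodes epigen, a further ligand of the same cluster, from 62803595 to 62811581. Its gas libraries held 10.9, 15.0 and 18.5 FPKM and its dCAMP libraries 20.9, 19.6 and 20.7. The groups did not overlap, and gas 3 was nearest to the dCAMP libraries. The log2 fold change was 0.46 (SE 0.21), with an unadjusted p of 0.0661 and an adjusted p of 0.255 in edgeR. Leaving out gas 1 gave 0.25, and leaving out gas 3 gave 0.62 with an adjusted p of 0.0379 in edgeR. The fit without gas 3 called 33.1% of the genes it tested.

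The 3 ligands of the cluster occupy 133159 bases. EPGN, EREG and AREG follow each other with only 2 further annotated genes between the ends of the span, LOC111098640 and LOC111098641, both at 0 counts in all 6 libraries. LOC111098640 lies within the EPGN locus, and it is the only gene overlapping any of the 10 loci. The neighbour before EPGN, MTHFD2L, a mitochondrial folate enzyme, had a log2 fold change of 0.46 with overlapping groups (edgeR, adjusted p = 0.310). On the other side, LOC609134 had −0.07 (adjusted p = 0.555 in edgeR). Within the span, the 3 expressed genes were each higher in all dCAMP libraries, as were 19.0% of all genes tested. A shared response of the locus was not tested.

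**Figure D2:**
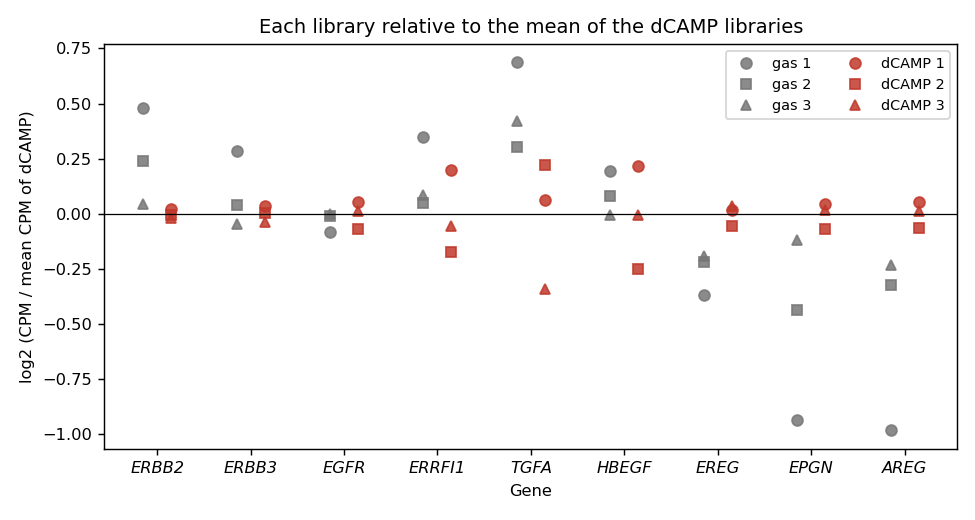
The log2 ratio of each library's CPM to the mean CPM of the dCAMP libraries, with gas libraries in grey, dCAMP libraries in red and a marker shape for each library number. Gas 1 lies farthest from 0 for AREG at −0.98, EPGN at −0.93, EREG at −0.37 and ERBB2 at 0.48, and gas 3 is the nearest gas library for each of these 4 genes.

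TGFA encodes transforming growth factor alpha, an EGFR ligand located on chromosome 10 from 68915671 to 68957027. It was the least abundant of the 5 ligands detected in this group, with 3.96, 2.95 and 3.18 FPKM under gas and 2.50, 2.81 and 1.90 in the dCAMP libraries. These levels rest on 194, 169 and 185 counts under gas and 126, 130 and 93 in the dCAMP libraries. The groups did not overlap, although dCAMP 2 lay close to gas 2. On the log2 scale dCAMP differed from gas by −0.47 (SE 0.19), with an unadjusted p of 0.0480 and an adjusted p of 0.240 in edgeR. It was −0.38 without gas 1 and −0.37 without dCAMP 3, and the unadjusted p was between 0.0517 and 0.128 in these fits and in those without gas 3 or dCAMP 1.

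HBEGF encodes the heparin-binding ligand of EGFR, on chromosome 2 from 35551248 to 35563310. The gas libraries held 5.45, 4.87 and 4.66 FPKM and the dCAMP libraries 5.41, 3.87 and 4.63. The groups overlapped, and the dCAMP libraries covered a wider range than the gas libraries. The log2 fold change was −0.09 (SE 0.15, adjusted p = 0.683 in edgeR). Its counts, 476 to 736 per library, were divided over 6 transcripts. The 2606-base transcript held 39.4% ± 11.3 of them in gas libraries and 45.9% ± 16.6 in dCAMP libraries (SD, n = 3 each; two-sided exact permutation test, p = 0.5, adjusted p = 0.7). The share of this transcript ran from 26.4% to 61.9% between single libraries, and its transcripts share most of their sequence span, so the division is uncertain.

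BTC, which encodes betacellulin, lies on chromosome 15 from 64133051 to 64159155 and had 0 counts in all 6 libraries. A count of 0 allows up to 3 counts, or 0.0555 to 0.0696 CPM by library when scaled to the total counts, and covers counting error only. It was not tested.

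ERRFI1 encodes MIG6, a cytoplasmic protein that binds the EGFR kinase domain and inhibits it, on chromosome 5 from 61621964 to 61636152. It measured 14.0, 11.03 and 11.2 FPKM under gas and 12.2, 9.53 and 10.3 in the dCAMP libraries. The groups overlapped, with dCAMP 1 above gas 2 and gas 3. The difference on the log2 scale was −0.17 (SE 0.14, adjusted p = 0.439 in edgeR).

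In CPM, AREG, EPGN, EREG and EGFR rose and ERBB2, ERBB3 and HBEGF fell from gas 1 through gas 2 to gas 3. The place on the first principal component and the mitochondrial share rose in the same order. Gas 3 had a mitochondrial share of 2.35%, above the 2.19% to 2.23% after dCAMP, and its AREG, EPGN and EREG lay below every dCAMP library. The part of these features in the result was not tested. The gas libraries also differed in how counts depended on gene length, with slopes of −0.08, −0.05 and 0.03 on the log2 scale per doubling of length, against 0.03 to 0.04 in the dCAMP libraries. With that trend removed, the log2 fold changes were 0.52 for AREG, 0.29 for EREG, 0.48 for EPGN and −0.42 for TGFA, and the unadjusted p of TGFA in edgeR was then 0.0703. ERBB2 then stood at −0.47, with an unadjusted p of 0.0372 and an adjusted p of 0.228 in edgeR, and EGFR at −0.20.

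**Figure D3:**
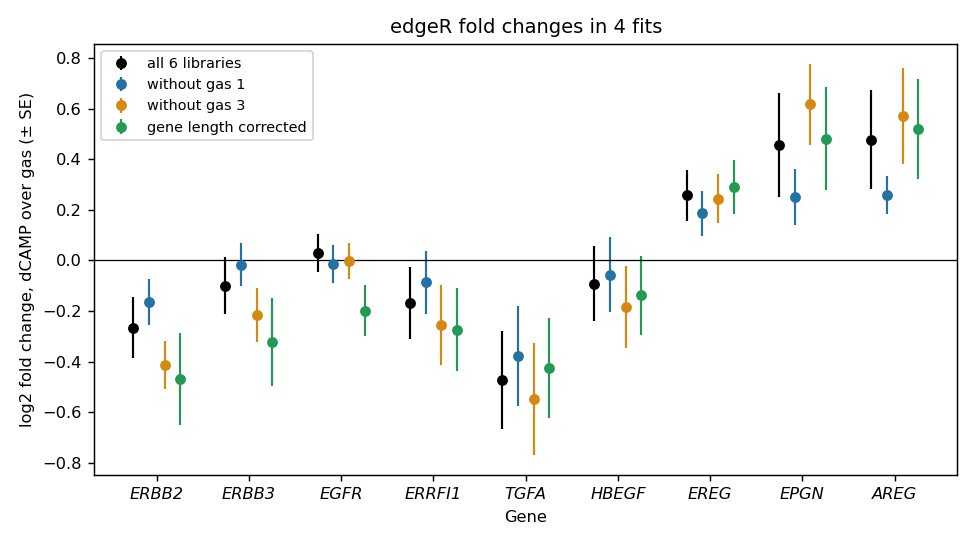
The log2 fold change, dCAMP over gas, of the 9 tested genes in edgeR with all 6 libraries, without gas 1, without gas 3 and with gene length corrected, where bars are standard errors. AREG, EPGN and EREG stay above 0 and ERBB2 and TGFA below 0 in the 4 fits, while EGFR is at 0.03 with all libraries and below 0 in the other 3.

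The voom fit with sample quality weights gave AREG, EPGN, EREG and ERBB2 adjusted p-values of 0.00137, 0.000627, 0.00467 and 0.00133, at log2 fold changes of 0.34, 0.44, 0.23 and −0.24. It called 60.8% of all genes tested. The weights were 0.115 for gas 1, 6.73 for gas 2 and 0.192 for gas 3, so that gas 2 carried most of the gas group in that fit.

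The pattern over the 6 libraries was compared with that of other genes for the most abundant receptor and the most abundant ligand, by Pearson's r of log2 CPM. For ERBB2 the closest genes were FBXW9, the ribosomal protein gene RPS19 and ACTN1, which encodes an actin crosslinker, with r of 0.999, 0.999 and 0.998. For AREG they were AUH and BCKDHB, which encode mitochondrial enzymes of branched-chain amino acid breakdown, and SAT1, an enzyme of polyamine breakdown, with r of 0.9998, 0.999 and 0.999. An r of 0.95 or more was found for 1417 genes with ERBB2 and 2119 genes with AREG among the 14708 tested. The 6 points share the gap between gas 1 and the rest, and no test was made.

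Other genes of the pathway were taken from 6 lists holding 74 genes, of which 69 were tested. Of the 69, 15 had an unadjusted p under 0.05, 5 higher and 10 lower in dCAMP, beside 6.81% and 13.9% of all genes tested in these directions. None of the 69 had a 2-fold change with such a p, and edgeR gave none an adjusted p under 0.05. Without gas 3, 41 of the 69 had an unadjusted p under 0.05, and without any other single library 5 to 16 had one. The shares of all genes tested in the same fits were 49.2% without gas 3 and 6.86% to 20.6% without any other library. The genes named are those with the highest and lowest log2 fold change of a list, and the further genes named are those with an unadjusted p under 0.05, chosen after their values were seen.

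Of the other ERBB family genes, ERBB4, a receptor, and the neuregulins NRG3 and NRG4 had 0 counts in every library. EGF, NRG1 and NRG2 were tested and none of them had an unadjusted p under 0.05. Their log2 fold changes ran from −0.11 for EGF, at 10 to 24 counts per library, to 0.09 for NRG1.

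Among the genes of ligand shedding, 10 of 11 were tested, with a median log2 fold change of 0.06. TIMP3, an inhibitor of shedding metalloproteinases, was higher in dCAMP, with 138, 122 and 115 CPM under gas and 201, 171 and 198 in the dCAMP libraries. Its log2 fold change of 0.61 (SE 0.11, unadjusted p of 0.00124, adjusted p = 0.221 in edgeR) was 0.66 without gas 1 and 0.50 without gas 3. The protease ADAM8 was lowest, with −0.78 (unadjusted p of 0.0236, adjusted p = 0.222 in edgeR) at under 1.01 CPM in every library, and RHBDF2, a carrier of the sheddase ADAM17, had −0.40 (unadjusted p of 0.0116, adjusted p = 0.221 in edgeR). ADAM10, a sheddase, was highest with 0.67 (adjusted p = 0.276 in edgeR). Its values of 78.1, 127 and 212 CPM in gas libraries 1, 2 and 3 spanned a wider range than the 216 to 230 CPM of the dCAMP libraries.

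All 16 genes of the adaptor and RAS-MAPK list were tested, with a median of −0.01. GAB1, a docking protein, was higher with 0.56, and the kinases ARAF and MAP2K2 and the GTPase HRAS were lower with −0.37, −0.42 and −0.48, each with an unadjusted p under 0.05 and an adjusted p of 0.221 in edgeR. HRAS held 67.5, 62.1 and 46.0 CPM under gas and 43.5, 43.6 and 38.4 after dCAMP.

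Of the 12 genes of PI3K-AKT, PLC and STAT signalling, the kinases AKT1 and AKT2 were lower, with log2 fold changes of −0.41 and −0.43 (unadjusted p of 0.0114 and 0.0179, adjusted p = 0.221 for both in edgeR). AKT1 held 351, 333 and 265 CPM under gas and 237, 244 and 232 in the dCAMP libraries. PIK3CA, the catalytic subunit of PI3K, was highest with 1.03 (adjusted p = 0.290 in edgeR), from 5.38, 17.04 and 30.5 CPM in the gas libraries to between 34.4 and 38.0 in the dCAMP libraries. The list's median was −0.03.

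Feedback and receptor turnover genes had a median of 0.09 over the 16 tested. DUSP6, a phosphatase of ERK, CBLB, a ubiquitin ligase, and EPS15, an endocytic adaptor, were higher with log2 fold changes of 0.41, 0.43 and 0.55, while the endosomal sorting gene HGS and the RAS-MAPK inhibitor SPRED2 were lower with −0.39 and −0.24, all with an unadjusted p under 0.05 and adjusted p of 0.221 to 0.242 in edgeR. DUSP6 measured 118, 115 and 130 CPM under gas and 187, 135 and 159 in the dCAMP libraries. SPRED1, a relative of SPRED2, was highest with 0.97 (adjusted p = 0.287 in edgeR).

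In the list of 12 genes induced by EGFR and MAPK signals, none had an unadjusted p under 0.05, and the median log2 fold change was −0.14. FOS, an immediate early transcription factor, was highest with 0.75 (SE 0.56, adjusted p = 0.386 in edgeR), and PLAUR, the urokinase receptor, was lowest with −0.31 (adjusted p = 0.312 in edgeR). Both overlapped between the groups.

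**Figure D4:**
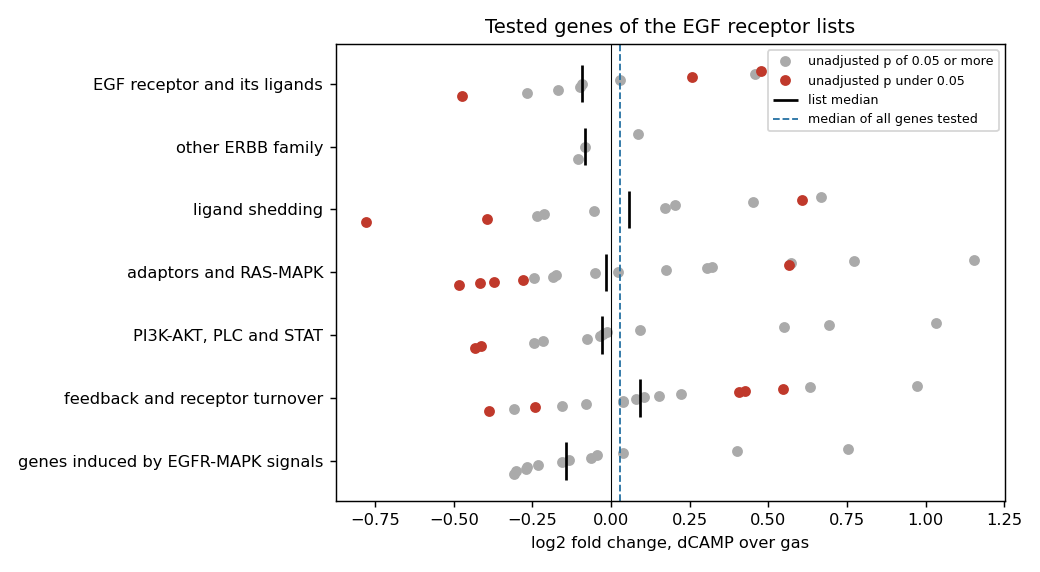
Log2 fold changes, dCAMP over gas, of the tested genes in the 9-gene group and the 6 pathway lists, with genes at an unadjusted p under 0.05 in red, list medians as black bars and the median of all genes tested, 0.03, as a dashed line. The list medians lie between −0.14 and 0.09, and PIK3CA, at 1.03, is among the genes that did not reach the threshold.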

How the data were processed

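Libraries of dCAMP-treated and gas-treated CPEK cells were grouped by their labels. The authors trimmed reads with Trimmomatic 0.38, mapped them to CanFam3.1 with HISAT2 2.1.0 and summarized known transcripts with StringTie 2.1.3b (tools per the labels and methods). The authors deposited read counts per gene and transcript without normalization, FPKM values scaled to transcript length and mapped reads, and TPM values, which were not used here. How reads on overlapping genes were assigned is not given in the sources used here. All per-sample columns were matched to samples.

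Counts were tested with R 4.3.3 and edgeR 4.0.16: TMM factors, filterByExpr (14708 genes kept), the quasi-likelihood test, Benjamini-Hochberg adjustment over all genes tested and a prior count of 2. Standard errors were the log2 fold change over the square root of F. FPKM served for levels and ratios and, in alternatives only, for tests. Only the edgeR and DESeq2 fits were tested on simulated counts. These counts held larger changes than those of the genes described here, and no outlying library or length trend. The alternatives were DESeq2 1.42.0 with 2 filters, other scaling factors and filters, limma 3.58.1 (voom with sample quality weights, and log2 of FPKM plus 1 or plus 0.1), a length correction (lowess, span 0.3), the replicate number as a block, that block with the length correction, and leaving out each library. Transcript shares were tested for genes with at least 2 transcripts holding 5% or more of the counts.

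The genes and lists were chosen with earlier results of these data known. All 10 genes are named, and of each list the tested genes with the highest and lowest log2 fold change. DUSP4, a listed gene, was not analysed here. Some genes that met the rule are counted but not reported here by name. All 10 identifiers were found in the reference gene table of another assembly (UU_Cfam_GSD_1.0), used for names only, and coordinates were taken from the transcript table the authors deposited.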

Additional observations from a re-analysis of the deposited data

How the results depend on the processing

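Of the 9 genes, 8 kept the direction of their log2 fold change in all 18 alternatives, and EGFR did not: its value was −0.057 with upper-quartile factors, −0.20 with the gene length correction, −0.19 with that correction and the replicate block, and, without single libraries, −0.014 (gas 1) to 0.034 (dCAMP 2), below 0 also without gas 3 and dCAMP 3. The number of the 9 genes higher with an unadjusted p under 0.05, 2 in the edgeR comparison, was 1 with upper-quartile factors, without a filter and with at least 10 counts in every library, and 0 to 3 when single libraries were left out. The number lower, 1 in edgeR, was 0 with DESeq2 on all genes, 2 with voom, and 0 to 1 without single libraries. An adjusted p under 0.05 was reached by 4 genes with voom, beside 60.8% of all genes tested, and by 0 to 2 without single libraries. The 2 were EPGN and ERBB2 without gas 3, where 33.1% of all genes tested reached it. The median log2 fold change of the 9 genes, −0.09, was −0.20 with the length correction, −0.19 with the block added to it, and −0.18 to −0.01 without single libraries. The pathway genes with an unadjusted p under 0.05, 15 in edgeR, numbered 51 with voom, and 5 without dCAMP 3 to 41 without gas 3, where 64.9%, 6.86% and 49.2% of all genes tested had such a p. With the length correction TGFA lost its unadjusted p under 0.05 (0.0703, and 0.0921 with the block added) and ERBB2 gained one. The difference in transcript share, dCAMP minus gas, ran from −2.81 to 0.47 percentage points for ERBB2 and from −1.44 to 15.1 for HBEGF without single libraries, reversing without dCAMP 2 and dCAMP 3, respectively. The cause of these changes was not tested, and the fits that leave 1 out also hold fewer libraries. With the replicate block, 0 of the 9 genes were higher and 0 lower with an unadjusted p under 0.05, with log2 fold changes of 0.51 for AREG and −0.25 for ERBB2. Nothing in the labels says that equal numbers mark a shared culture or day, so the block was not used for the main values. Deviations from the group mean correlated across genes at 0.13, 0.02 and 0.05 for equally numbered libraries. Unequally numbered libraries correlated at −0.14 to 0.09, and 4 of 6 libraries correlated best with their own number. With so few libraries, these values cannot decide whether the libraries are paired. Depth limits TGFA most, at 93 to 194 counts.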

Other observations

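Of the genes induced by EGFR and MAPK signals, FOS and EGR1, both immediate early transcription factors, varied widely between libraries of 1 group; they are described here after their values were seen. In CPM, FOS stood at 47.2, 29.9 and 23.9 in gas libraries 1, 2 and 3 and at 106, 24.7 and 39.5 in dCAMP libraries 1, 2 and 3. EGR1 held 150, 83.0 and 63.5 CPM under gas and 246, 44.1 and 102 after dCAMP. The groups overlapped for both genes.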
